A study of Saccharomyces cerevisiae with 4 samples.

Results

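The mRNAs of the 8 subunits of the cytosolic chaperonin CCT, also called TRiC, were followed from total lysate into purified nuclear messenger ribonucleoprotein particles (mRNPs) of Saccharomyces cerevisiae. The members were taken by gene identifier from the deposited count table: TCP1 (YDR212W), CCT2 (YIL142W), CCT3 (YJL014W), CCT4 (YDL143W), CCT5 (YJR064W), CCT6 (YDR188W), CCT7 (YJL111W) and CCT8 (YJL008C). They are 8 of the 6692 open reading frames in that table, and all 8 passed the filter on low counts, as did 6191 genes in all.

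Every library came from BY4741 cells grown in YPD that carried sub2-FLAG-3C-ProtA::kanMX4 together with hpr1-TS::hphNT1. Sub2, an RNA-dependent ATPase, thus carried a FLAG and protein A tag, and Hpr1, a subunit of the THO complex, a Twin-Strep tag, each at its genomic locus. The 2 eluates hold RNA of particles captured first through Sub2 and then through Hpr1 and released with biotin. The 2 lysates hold total RNA of the same strain, and RNA of both fractions was depleted of rRNA before sequencing. In the eluates the paper reports coverage skewed toward the start of transcripts, less so in individual profiles, and reads it as nascent transcripts. Counts per reading frame do not tell complete from incomplete transcripts. A mock purification from untagged cells was not analysed here, so that carry-over onto the beads was not tested.

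CCT is a barrel of stacked rings, each built from 8 related but distinct subunits that take fixed places. It uses ATP to fold proteins that reach their native form poorly on their own, above all actin and the tubulins, and a number of proteins with WD40 propellers. Each subunit is encoded by a gene of its own and is essential in yeast, and the assembled ring holds the subunits in equal numbers. Comparing the subunit mRNAs therefore asks whether transcripts whose products are needed in equal amounts were also recovered alike in nuclear particles.

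Total counts per library ranged from 11448755 to 29903666. LEU2, URA3 and MET17, which BY4741 lacks, had 0 counts in every library. Eluates and lysates were compared gene by gene on the deposited counts (quasi-likelihood test of edgeR), with p-values adjusted by Benjamini-Hochberg over the 6191 genes. Levels are CPM, that is counts scaled to a common normalized library size, divided by coding length in kb where genes are compared with each other. A fold change compares a gene's part of one RNA pool with its part of the other, not molecules per cell. The labels name 2 replicates per fraction but no separate cultures, so that the p-values measure the spread between these libraries. Member counts ranged from 1687 to 16793, so that no member's value rests on few counts.

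The CCT mRNAs were not recovered alike. TCP1 and CCT5 were strongly depleted from the eluate, CCT3, CCT8, CCT4 and CCT2 were lower to lesser degrees, and CCT6 and CCT7 were slightly higher. The threshold of 0.05 on the adjusted p from edgeR was passed by all 8 members, by 6 as lower and by 2 as higher in the eluate. Of all genes tested, 44.8% were lower and 44.2% were higher, so that passing the test is common in these data and the size of a change says more than its call. The median log2 fold change of the members was -0.78, beside -0.01 over all genes tested. The values ran from -2.91 to 0.45, a range of 3.37 on the log2 scale with an SD of 1.24 among the 8 genes. In all 8 members both eluates lay on one side of both lysates, as they did in 94.4% of all genes tested.

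CCT5, the epsilon subunit, had the lowest value. Its level was 387 and 349 CPM per kb in lysates 1 and 2 and 46.1 and 51.5 CPM per kb in eluates 1 and 2. The libraries of each fraction lay close together and the fractions far apart. This was 7.54 times lower in the eluates, or -2.91 on the log2 scale (SE 0.112, edgeR adjusted p = 1.91e-12). The gene lies on chromosome X from 555914 to 557602 on the forward strand (sacCer3) and consists of 1 exon, as does each of the other members.

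TCP1, the alpha subunit and the founding member of the family, behaved much like CCT5. It had 327 and 293 CPM per kb in the lysates and 49.6 and 52.8 CPM per kb in the eluates. Again no eluate came near a lysate. The log2 fold change was -2.60 (SE 0.106, edgeR adjusted p = 3.87e-12), 6.05 times lower in the eluates. TCP1 lies on chromosome IV from 887232 to 888911 on the forward strand. No other member fell by more than 1.20 on the log2 scale, so that TCP1 and CCT5 stood apart from the other 6 genes by over 1 log2 unit.

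CCT7, the eta subunit, was at the other end. Its level was 262.6 and 262.4 CPM per kb in the lysates and 348 and 371 CPM per kb in the eluates. All eluate values lay above the lysate values, but by a margin far smaller than that of TCP1 or CCT5 in the opposite direction. The log2 fold change was 0.45 (SE 0.101, edgeR adjusted p = 0.000638). The gene lies on chromosome X from 207877 to 209529 on the forward strand. CCT6, the zeta subunit, on chromosome IV from 836421 to 838061 on the same strand, had 228 and 218 CPM per kb in the lysates and 266 and 288 CPM per kb in the eluates. Its log2 fold change was 0.31 (SE 0.10, edgeR adjusted p = 0.00851).

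The direction of these small differences depends on the scale. With normalization factors taken only from genes of 1 to 3 kb, which moved the median of all genes by -0.34, CCT7 was at 0.11 (edgeR adjusted p = 0.296) and CCT6 at -0.03 (adjusted p = 0.789). With library totals alone, which moved that median by -0.18, CCT6 was at 0.13 (adjusted p = 0.150) while CCT7 still passed. Without eluate 2, CCT6 was at 0.24 and did not pass either (adjusted p = 0.0690). The calls that CCT6 and CCT7 were higher therefore depend on the scaling, and that of CCT6 also on 1 library, whereas their distance from TCP1 and CCT5 does not depend on a scaling that moves all genes together.

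The other members lay between these extremes. CCT3, the gamma subunit, also known as BIN2, lies on chromosome X from 407558 to 409162. It went from 357 and 336 CPM per kb in the lysates to 144 and 156 CPM per kb in the eluates, and fell by 1.20 (SE 0.102, edgeR adjusted p = 2.10e-08). CCT8, the theta subunit, is the only member on the reverse strand (chromosome X, 419957 to 421663). It had 242 and 233 CPM per kb in the lysates against 127 and 132 CPM per kb in the eluates, a log2 fold change of -0.87 (SE 0.0959). CCT3 was thus the lower of the 2 genes, by 0.33 on the log2 scale (95% interval of CCT3 minus CCT8 -0.60 to -0.06), and both fell less than TCP1 and CCT5.

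CCT4, the delta subunit, also known as ANC2, lies on chromosome IV from 199996 to 201582 and was the most abundant member in the lysates. It had 456 and 418 CPM per kb there and 260 and 283 CPM per kb in the eluates, a log2 fold change of -0.69 (SE 0.106, edgeR adjusted p = 1.97e-05). CCT2, the beta subunit, also known as BIN3, lies on chromosome IX from 83302 to 84885 and was the least abundant member in the lysates. Its 151 and 138 CPM per kb there compared with 117 and 118 CPM per kb in the eluates, a log2 fold change of -0.30 (SE 0.0941, edgeR adjusted p = 0.00739). This call was lost without eluate 1 (-0.26, adjusted p = 0.0666).

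**Figure D1:**
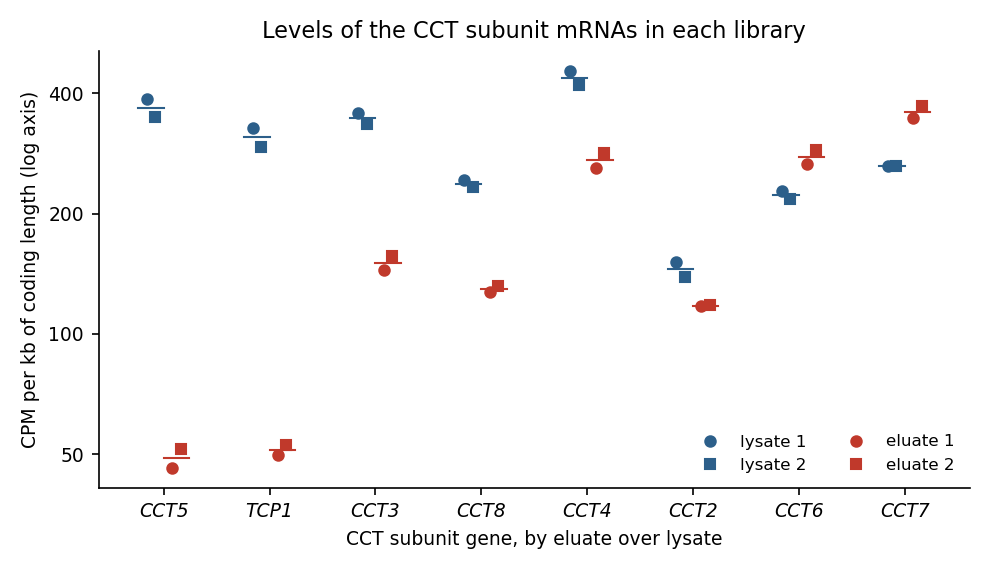
Level of each CCT subunit mRNA in CPM per kb of coding length (log axis) in lysates 1 and 2 (blue) and eluates 1 and 2 (red), with genes ordered by fold change and short lines at the mean of each fraction. CCT5 and TCP1 drop from at least 293 to at most 52.8 CPM per kb, while CCT6 and CCT7 lie slightly higher in the eluates.

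Replicate libraries agreed closely for these genes. Between the eluates a member differed by at most 0.158 on the log2 scale, and between the lysates by at most 0.159. Over all genes tested, the median absolute difference was 0.105 for the eluates and 0.128 for the lysates. In every member eluate 2 was above eluate 1 and lysate 2 below lysate 1. The labels do not say which eluate and lysate came from the same culture.

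Coding length differs little within the complex. The shortest member, CCT2, has 1584 bases and the longest, CCT8, 1707, a ratio of 1.08. Over the 8 genes Spearman's rho between coding length and log2 fold change was -0.43, given as a description only. TCP1 with 1680 bases and CCT6 with 1641, picked as an example, are near-equal in length and differ by 2.91 on the log2 scale. Members next to each other in length differed by little or by much. Differences in log2 fold change were 0.38 (CCT2 minus CCT4), -0.52 (CCT3 minus CCT4), -0.14 (CCT6 minus CCT7) and 0.32 (TCP1 minus CCT5). They were -1.52 for CCT3 minus CCT6, -3.05 for TCP1 minus CCT7 and -2.04 for CCT5 minus CCT8. Untranslated regions were not analysed here.

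Compared with other genes of the same length, most members sat low. The comparison genes were matched on coding length but not on level, and all members were abundant in the lysates. Whether level bears on this position was not tested. Among 238 other nuclear protein-coding genes of 1584 to 1707 bases, 56.7% were higher and 29.8% lower in the eluate, with a median log2 fold change of 0.54 and an SD of 1.62. CCT5 lay below all 238 of them, the lowest of which was TNA1 at -2.64. TCP1 had 0.84% of them below it, CCT3 13.0%, CCT8 20.2%, CCT4 23.1% and CCT2 29.4%. CCT6 and CCT7 lay near the middle, with 44.5% and 47.9% below them. The members' SD of 1.24 was smaller than that of the genes of like length. With a smooth trend on coding length removed, all members were below 0, from -0.01 for CCT7 and -0.13 for CCT6 to -3.43 for CCT5. The median over the genes fitted was itself below 0, at -0.10, so that CCT7 lay above it and CCT6 close to it.

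**Figure D2:**
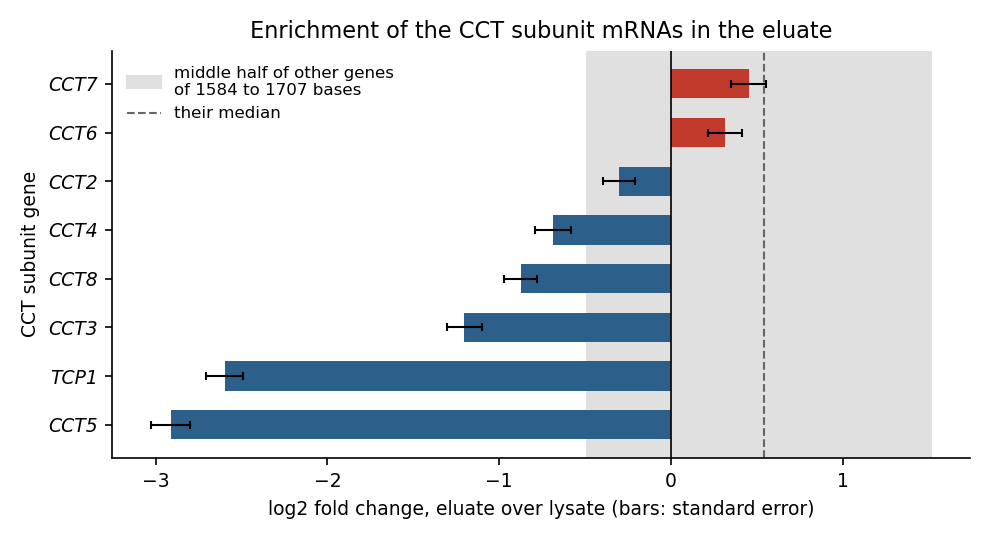
Log2 fold change of each member, eluate over lysate, with its SE from edgeR (2 libraries per fraction). The grey band spans the 25th to the 75th percentile of 238 other nuclear genes of the same coding length and the dashed line is their median of 0.54, which no member reaches.

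The order of the subunit mRNAs changed between the fractions. In the lysates the order by mean level was CCT4, CCT5, CCT3, TCP1, CCT7, CCT8, CCT6 and CCT2, from 437 to 145 CPM per kb. The values of CCT5 and CCT3 overlapped between libraries there, although CCT5 was higher within each lysate, and the other neighbours in the order did not overlap. In the eluates the order was CCT7, CCT6, CCT4, CCT3, CCT8, CCT2, TCP1 and CCT5, from 359 to 48.8 CPM per kb. CCT6 overlapped with CCT4, and TCP1 with CCT5, only between different libraries. Within each eluate CCT6 was above CCT4 and TCP1 above CCT5. CCT5 thus went from the second place to the last and CCT7 from the fifth to the first. Spearman's rho between the mean levels of the fractions was -0.14 over the 8 genes, which share their libraries.

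The levels were also more unequal in the eluates. The highest member exceeded the lowest 3.01 and 3.02 times in lysates 1 and 2, and 7.54 and 7.21 times in eluates 1 and 2. The SD of log2 levels among the members was 0.508 and 0.496 in the lysates and 1.09 and 1.08 in the eluates. Set against all genes tested, mean levels per kb lay between percentiles 84.0 (CCT2) and 94.5 (CCT4) in the lysates. In the eluates they ran from 55.9 (CCT5) and 57.3 (TCP1) up to 96.7 (CCT7). The CCT mRNAs were thus all abundant in the lysate, and TCP1 and CCT5 lay slightly above the median gene in the particles.

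Expressed as shares of the summed CCT level, which depend on neither library size nor normalization, the same genes moved. An even pool would give each gene 12.5%. TCP1 took 13.6% and 13.0% in lysates 1 and 2 and 3.65% and 3.63% in eluates 1 and 2. CCT5 took 16.1% and 15.5% in the lysates and 3.40% and 3.54% in the eluates. Together they made up 29.6% and 28.6% of the lysate pools but 7.05% and 7.18% of the eluate pools. CCT7 went the other way, from 10.9% and 11.7% to 25.6% and 25.5%, and CCT6 from 9.45% and 9.69% to 19.6% and 19.8%. Their joint share was 20.3% and 21.4% in the lysates and 45.2% and 45.4% in the eluates. CCT2, CCT3, CCT4 and CCT8 together made up 50.04% and 50.08% in the lysates against 47.8% and 47.5% in the eluates. Within this sum CCT3 went from 14.8% and 14.9% in the lysates to 10.6% and 10.8% in the eluates. CCT2 went from 6.28% and 6.16% to 8.62% and 8.12%. The share of every member lacked overlap between the fractions, so that this does not set CCT3 and CCT2 apart. An exact permutation test of any one share cannot go below p = 0.333 (two-sided) with 2 libraries against 2.

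**Figure D3:**
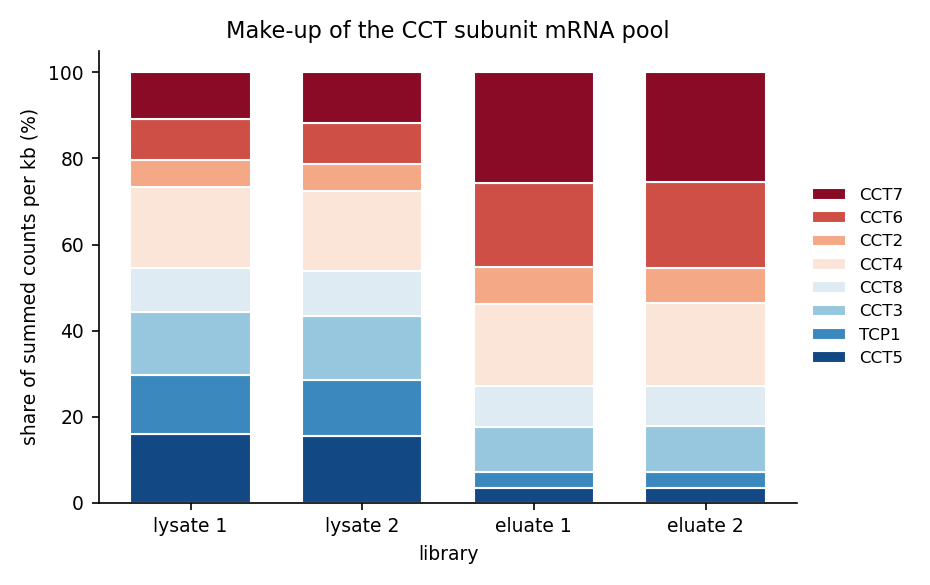
Share of each member in the summed counts per kb of the 8 CCT genes, in percent, for each library. In the eluates CCT6 and CCT7 fill over 45% of the bar and TCP1 and CCT5 about 7%, compared with about 21% and 29% in the lysates.

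Summed over the 8 genes, CCT mRNA took less of the eluates than of the lysates. Its share of all counts was 0.418% and 0.396% in lysates 1 and 2 (95% exact binomial intervals 0.414% to 0.421% and 0.3928% to 0.4001%) and 0.214% and 0.217% in eluates 1 and 2 (0.212% to 0.216% and 0.216% to 0.219%). The intervals reflect counting error alone and leave out the spread between libraries. They may be too narrow even for that, because PCR copies of a molecule could not be told apart. In normalized terms the sum was 3826 ± 190 CPM in the lysates and 2296 ± 108 CPM in the eluates (SD, n = 2 each), 1.67 times lower.

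Ratios between members give the same picture pair by pair. CCT5 per kb was 1.47 and 1.33 times CCT7 in lysates 1 and 2 and 0.133 and 0.139 times CCT7 in eluates 1 and 2. This is the widest of the 28 pairs, chosen for its size, with a difference in log2 fold change of -3.37 (SE 0.151). In all, 18 of the 28 pairs differed by more than 1 log2 unit in fold change. The share among pairs of other genes was not computed. Other nuclear genes of like coding length had a larger SD of log2 fold change (1.62) than the members (1.24). The count of pairs therefore does not set the members apart from other genes. The 95% interval of the difference held 0 in 2 pairs, CCT6 with CCT7 (-0.14, 95% interval -0.42 to 0.14) and CCT4 with CCT8 (0.19, -0.09 to 0.47). TCP1 and CCT5 differed by 0.32 (0.01 to 0.62), an interval that ends so near 0 that their separation is uncertain. Standard errors of the 2 genes were combined as if independent, and no p-value is given. All intervals of such differences came from the normal distribution, which makes them too narrow with so few libraries. In the ring, where the known order of neighbours is CCT6, CCT8, CCT7, CCT5, CCT2, CCT4, TCP1 and CCT3, neither the pair of lowest mRNAs nor the pair of highest sits side by side.

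No member was the nearest neighbour of another in the genome, and the members' neighbours had values of every kind. CCT3, CCT5, CCT7 and CCT8 lie on chromosome X, TCP1, CCT4 and CCT6 on chromosome IV and CCT2 on chromosome IX. The closest members are CCT3 and CCT8, with CCT3 ending at base 409162 and the span of CCT8 beginning at base 419957. Upstream of CCT5, 341 bases away on the same strand, RPA12, a subunit of RNA polymerase I, had a log2 fold change of -2.83, close to that of CCT5. Downstream, ARP3, an actin-related protein that is itself folded with the help of CCT, was at -0.80. TCP1 differed from both its neighbours. GCD6, the epsilon subunit of the initiation factor eIF2B, ends 366 bases before it and was at -0.17, short of the threshold (edgeR adjusted p = 0.122), and UPC2, a regulator of sterol genes, was at 2.67. CCT7 lies between MDV1, of mitochondrial fission, at 0.90 and the GATA factor gene GZF3 at 2.61. Of the 16 nearest neighbours, chosen among genes that do not overlap the member, the lowest was RPA12 and the highest UPC2.

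Overlapping reading frames touch 3 members. CCT2, CCT6 and CCT8 each share bases with a frame on the opposite strand, and the libraries were made with a directional kit, but the sources used here do not state whether strand was used in counting. YDR187C overlaps CCT6 by 326 bases and had 300 and 380 counts in eluates 1 and 2, equal to 3.04% of the CCT6 counts, against 38 and 22 counts in lysates 1 and 2 (0.587%). YJL009W overlaps CCT8 by 225 bases and had counts equal to 5.34% of those of CCT8 in the eluates and 7.68% in the lysates. YIL142C-A overlaps CCT2 by 239 bases and had 4 counts in eluate 1 and 0 in the other libraries. Adding these counts to the members left CCT2 at -0.30, CCT6 at 0.35 and CCT8 at -0.90. TCP1, CCT3, CCT4, CCT5 and CCT7 overlap no other frame.

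Prefoldin, the complex that hands unfolded actin and tubulin to CCT, is also built from distinct subunits, each encoded by a short gene. With edgeR, 5 of its 6 genes were lower in the eluate and 1 was higher, against 44.8% and 44.2% of all genes tested. The median log2 fold change of the 6 genes was -2.65. The lower genes were GIM4 at -4.41, PFD1 at -3.96, GIM5 at -2.69, GIM3 at -2.60 and YKE2 at -1.73. PAC10 was the exception. Its counts were 42 and 54 in lysates 1 and 2 against 1460 and 1340 in eluates 1 and 2, or 4.06 on the log2 scale (SE 0.207, edgeR adjusted p = 4.58e-11). The other prefoldin genes have coding lengths of 330 to 492 bases and PAC10 of 600, all far shorter than the CCT genes. GIM5 overlaps a frame on the opposite strand.

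PLP2, a phosducin-like protein, binds CCT and assists its folding reactions. Its mRNA had 89.1 and 83.4 CPM in the lysates and 81.7 and 81.4 CPM in the eluates, a log2 fold change of -0.08 that missed the threshold (edgeR adjusted p = 0.391). Cofactors that take over tubulin after CCT moved in both directions. Of 5 such genes, CIN1 at 2.18 and ALF1 at 0.48 were higher, and RBL2 at -1.56, PAC2 at -1.15 and CIN2 at -2.14 were lower. PLP2 and PAC2 each overlap a frame on the opposite strand.

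Genes of proteins that CCT folds were divided as well. Of 12 clients, 7 were lower, 4 higher and 1 did not pass, with a median of -0.42. Over all genes tested, 44.8% were lower and 44.2% higher. ACT1, which encodes actin, had 1969 and 2141 CPM in the lysates and 136 and 156 CPM in the eluates, a log2 fold change of -3.81 and the lowest of the list. The tubulin genes TUB1 and TUB2 were at -2.09 and -1.86, whereas TUB3 rose by 0.48. TUB1 and TUB3 encode near-identical alpha-tubulins and can share reads, which leaves the value of either uncertain. The highest client was CDH1, an activator of the anaphase-promoting complex with a WD40 propeller, at 2.07, close to its relative CDC20 at 2.004.

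**Figure D4:**
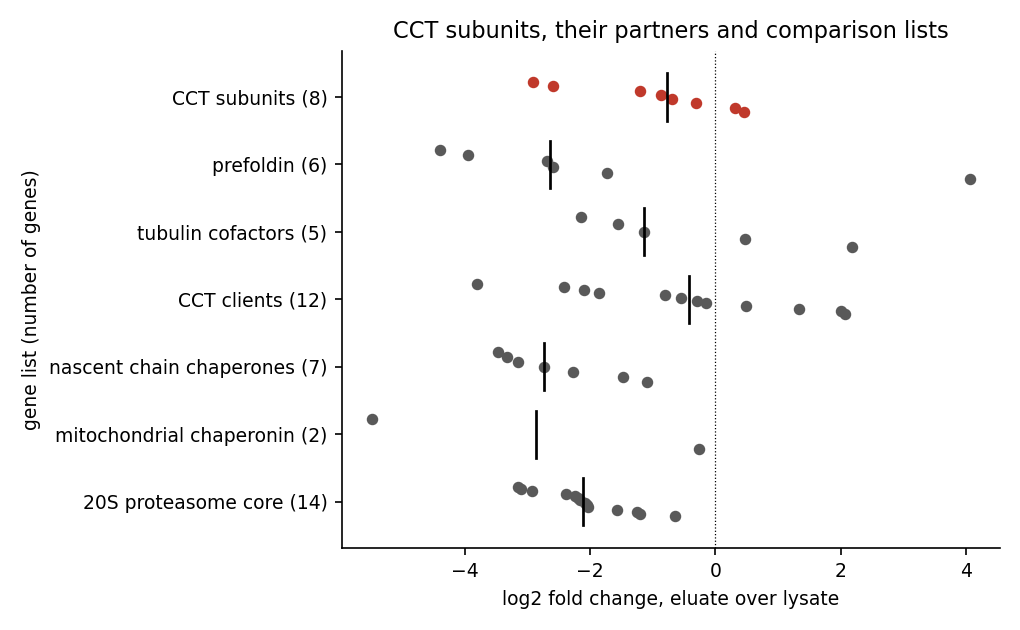
Log2 fold change, eluate over lysate, of each CCT gene (red) and of genes in the other lists described (grey), with a line at each median. All 14 genes of the 20S proteasome core and all 7 nascent chain chaperones lie below 0, while CCT, prefoldin, the tubulin cofactors and the clients have members on both sides.

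Chaperones that act before CCT on nascent chains were lower in 7 of 7 genes, against 44.8% of all genes tested. Their median was -2.75. Their coding lengths ran from 450 to 1842 bases, so that the list mixes genes of unlike length. Their values ran from -3.47 for EGD1 to -1.09 for EGD2, which together form the nascent polypeptide-associated complex. SSB1 and SSB2, of this list, are near-identical and can share reads, and SSB1 and SSZ1 overlap a frame on the opposite strand. The mitochondrial chaperonin gene HSP60, a distant relative of the CCT genes with a coding length of 1719 bases, had 827 and 867 CPM in the lysates and 719 and 698.5 CPM in the eluates. Its log2 fold change was -0.26 (edgeR adjusted p = 0.0329), within the span of the CCT genes. That of its short partner HSP10 was -5.49.

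The 20S core of the proteasome is another set of distinct subunits of like coding length that are assembled in equal numbers. All 14 of its genes were lower in the eluate, against 44.8% of all genes tested. Their median was -2.12, with values from -3.16 for PRE3 to -0.65 for PUP1. Their SD was 0.72 beside 1.24 for the CCT genes, a difference that was not tested. Their coding lengths, 597 to 867 bases, lie below those of all CCT genes, so that the medians of the lists compare genes of unlike length.

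**Figure D5:**
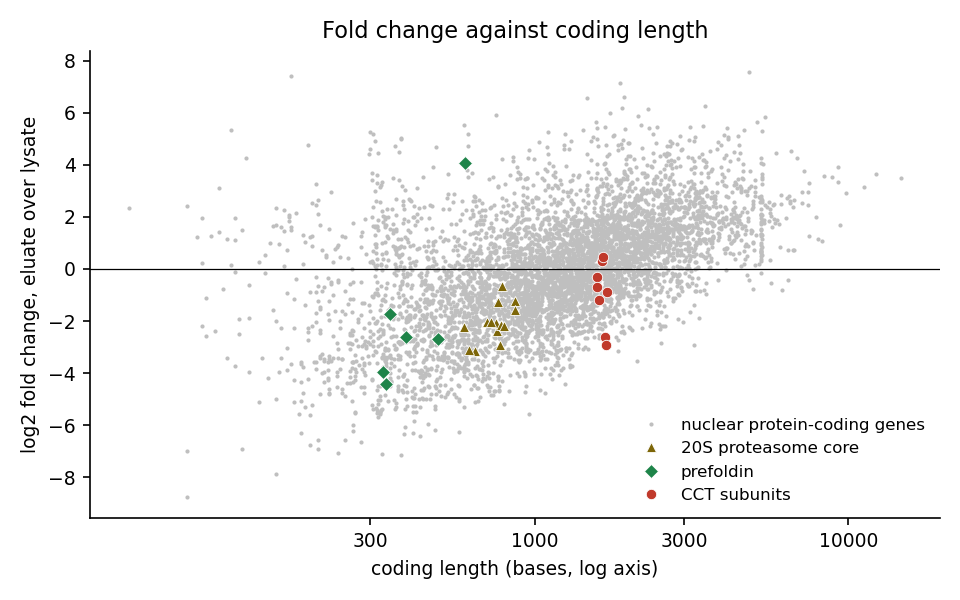
Log2 fold change, eluate over lysate, against coding length (log axis) for nuclear protein-coding genes (grey), with CCT, prefoldin and 20S proteasome core genes marked. The CCT genes form a near-vertical column at 1584 to 1707 bases that runs from -2.91 to 0.45.

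By mean profile over the 4 libraries, the genes closest to the CCT average were TMA22, SVF1, TAT1, NDE1 and FAA1, at Euclidean distances of 0.072 to 0.229 in log2 CPM per kb. TAT1 encodes an amino acid permease, NDE1 an external NADH dehydrogenase of mitochondria and FAA1 a fatty acyl-CoA synthetase. Their log2 fold changes lay between -1.02 and -0.90. The CCT average, a mean of log2 levels, corresponded to 286 and 268 CPM per kb in the lysates and 136 and 145 CPM per kb in the eluates. The 5 genes were picked for this likeness, so that it is a description only.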

How the data were processed

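The authors deposited counts of read pairs or reads per open reading frame. The submitters' processing notes name STAR 2.7.9a, featureCounts of Subread 2.0.3 and the build sacCer3, while the sources used here do not state its options for strand and multiple mapping. Coding length, another deposited column, is the summed exon length. The authors' DESeq2 table of fold changes and p-values was not used. Symbols came from the RefSeq table of R64, which matched 6008 of 6692 identifiers.

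The quasi-likelihood test of edgeR 4.0.16 (R 4.3.3) compared the fractions over all genes that passed filterByExpr, after TMM normalization and with no other term. The threshold was 0.05 after Benjamini-Hochberg adjustment. SE was computed as |log2 fold change| divided by the root of the F statistic. The script was tested on simulated data. Depth was 11448755 to 29903666 counts per library. The paper calls the replicates biological, while the labels name no separate cultures. Members and lists were chosen with earlier results of these data known, and lists are described without a test. One list is not reported here in full. All 8 members are named, with overlapping frames, the extremes of each list (lists of up to 6 in full) and the 5 nearest profiles. Other genes named, such as the tubulins, chromosomal neighbours beyond ARP3 and TNA1, were chosen after their values were seen. Alternatives covered normalization (RLE, library totals, TMM on genes of 1 to 3 kb), filters, DESeq2 1.42.0, limma-voom 3.58.1, a replicate block, leaving out each library, a loess trend on coding length and overlapping frames. Summaries were made in Python 3.11.15 with pandas 2.3.3.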

Additional observations from a re-analysis of the deposited data

How the results depend on the processing

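Over 13 alternative fits, TCP1, CCT3, CCT4, CCT5 and CCT8 kept their direction and call. TCP1 ranged from -2.94 to -2.52 and CCT5 from -3.26 to -2.80. In place of 2 members, 1 was called higher with library totals alone and 0 with factors from genes of 1 to 3 kb, where CCT6 was at -0.028 and CCT7 at 0.11. The median of the members was then -0.96 and -1.12. Removing the trend with coding length gave a median of -1.235, with CCT6 at -0.132 and CCT7 at -0.00997, beside a median of -0.104 over the genes fitted. With 1 library left out, 1 to 2 members were called higher and 5 to 6 lower, the median ranged from -0.841 to -0.704 and the SD among members from 1.22 to 1.26. CCT6 was lost without eluate 2 and CCT2 without eluate 1. RLE factors, both filters, DESeq2, limma-voom and the addition of overlapping frames, chosen after seeing the data, changed no call of a member. Shares of counts not divided by coding length differed by at most 0.638 percentage points.

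A fit with the replicate number as a block called 2 members higher and 6 lower, and 2730 genes higher and 2769 lower in place of 2737 and 2772. Deviations of same-numbered libraries were not correlated (Pearson's r -0.0352 over 6191 genes), so that the numbers were not taken as pairs.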
